A study of Mus musculus with 6 samples.

Results

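The genes described are 35 genes of mitochondrial fuel oxidation, taken by gene name from a table of 55401 genes. They are 16 genes of the citrate cycle and the malate-aspartate shuttle, 16 genes of branched-chain amino acid breakdown and 3 genes of ketone body use. Transcripts were measured by poly(A) RNA-seq, 1 library per heart, in 3 hearts of mice given angiotensin II (Ang II), a vasoconstrictor peptide used to produce cardiac hypertrophy, and in 3 control hearts. All mice were C57BL/6, aged 6 to 8 weeks, and no other allele or agent is named for either group. The dose, route and duration of Ang II, the sex of the mice and the heart chamber sampled are not given in the sources used here.

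The citrate cycle oxidises acetyl-CoA inside mitochondria and yields the reducing equivalents that feed the respiratory chain, which supplies nearly all ATP of the beating heart. The malate-aspartate shuttle carries cytosolic reducing equivalents into the mitochondrion through paired cytosolic and mitochondrial enzymes. Leucine, isoleucine and valine are first transaminated, then committed to oxidation by the branched-chain ketoacid dehydrogenase complex, which a kinase switches off and a phosphatase switches on. Ketone bodies made by the liver are taken up by heart muscle and turned back into acetyl-CoA.

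None of the 35 genes passed the test between Ang II and control hearts. With all 6 hearts, the quasi-likelihood test of edgeR, adjusted by the Benjamini-Hochberg method, called 6 of 16759 genes (0.0358%) at an adjusted p under 0.05 and 0 of the 35, whose lowest adjusted p was 0.584. Bdh1, the enzyme that starts the oxidation of 3-hydroxybutyrate, had the widest difference, 3.13-fold, and it rested on 2 of the 3 Ang II hearts. Ang II replicate 1 differed from its group for most of the set, being lower than both in 26 of the 35 genes (43.7% of all genes tested) and higher than both in 6 (42.7%). Without that heart, edgeR still called 0 of the 35 (0.73% of 17661 genes), but 19 of them were higher in Ang II at an unadjusted p under 0.05 (7.75% of all genes) and 0 were lower (7.6%). Limma after quantile normalization, also without that heart, gave 10 higher and 2 lower at that level, against 1216 and 1343 of the 17661 genes. With any other single library left out, edgeR gave 0 or 1 higher and 0 or 1 lower. With all 6 hearts, 2 were higher at that level, Got2 and Bdh1 (3.57% of all genes), and 0 were lower (3.94%).

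The promoter letters of some of these genes are shown first, because NRF1 and nuclear receptors are known regulators of mitochondrial genes and because Bdh1 had the widest difference. RefSeq windows of 300 bases, 250 before to 50 after each annotated start on GRCm38.p6, were matched by symbol for 32 of the 35 genes, and not for Idh3a, Acat1 and Dbt. Both strands were searched. A site of the factor NRF1, GCGCA and GCGC with any 1 base between them, stood in windows of 4 of the 32 genes (12.5%), namely Dld, Hibadh, Pccb and Sucla2, and in those of 5.19% of 27025 genes. Each match is in capitals in these stretches.
Dld, chr12:31351422-31351451, minus strand: cggcgatgacgtatatgttGCGCAGGCGCa
Hibadh, chr6:52640347-52640376, minus strand: agcaaggagaGCGCGTGCGCgagctgtcct
Pccb, chr9:101034934-101034963, minus strand: cagcgacgacGCGCAGGCGCagactcgcaa
Sucla2, chr14:73552759-73552788, plus strand: ctgcgtctctGCGCCTGCGCggtgcccagg
The letters AAGGTCA, bound by nuclear receptors, stood in windows of 2 of the 32 (6.25%), Ogdh and Got1, and in those of 5.38% of all genes.
Ogdh, chr11:6292155-6292184, plus strand: gacacggcgcTGACCTTggtgcctgcggca
Got1, chr19:43524826-43524855, minus strand: cccagAAGGTCAggaggttgtcctctgggg
The longer TNAAGGTCA of the estrogen-related receptors, which contains AAGGTCA, and the direct repeat of the PPARs, AGGTCA and AGGTCA with any 1 base between them, were in windows of 0 of the 32 genes. They stood in those of 1.43% and 0.0481% of all genes.

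Bdh1 has a pair of annotated starts, and both windows are shown with the letters CCACCC, the CACCC box bound by Krüppel-like factors, in capitals where either strand held them. The upstream window held none, and the downstream one held them on the opposite strand.
Bdh1 upstream start, chr16:31422047-31422346, plus strand: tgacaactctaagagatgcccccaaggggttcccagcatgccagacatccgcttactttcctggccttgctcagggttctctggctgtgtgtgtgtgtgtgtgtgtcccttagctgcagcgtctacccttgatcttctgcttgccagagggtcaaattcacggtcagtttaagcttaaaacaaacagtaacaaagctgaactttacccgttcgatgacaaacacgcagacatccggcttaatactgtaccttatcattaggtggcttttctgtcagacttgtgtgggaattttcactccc
Bdh1 downstream start, chr16:31428503-31428802, plus strand: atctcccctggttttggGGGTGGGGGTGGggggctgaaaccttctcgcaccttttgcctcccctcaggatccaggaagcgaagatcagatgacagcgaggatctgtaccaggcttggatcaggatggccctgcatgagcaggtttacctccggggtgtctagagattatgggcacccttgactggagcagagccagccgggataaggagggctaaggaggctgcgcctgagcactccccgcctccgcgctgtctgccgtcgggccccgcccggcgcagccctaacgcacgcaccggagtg
CCACCC stood in windows of 12 of the 32 genes (37.5%), against 34.0% of all genes, so the share was near the background. These matches are letters only; no binding was measured.

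The libraries held 51202916 to 63564869 estimated counts, of which mitochondrially encoded genes took 35.8% to 47.6%. Heart muscle markers were abundant in all 6 hearts, with a summed level of 10188 to 19371 FPKM over 10 genes. The protocol text speaks of RNA of an adipose type although the tissue label is heart, and fat cell markers were mixed. The fat hormone gene Lep and the brown fat gene Ucp1 had 0 counts in every library, and Adipoq, Plin1, Cidec and Elovl3 were at most 0.613 CPM. Fabp4, which endothelial cells also make, ran from 671 to 1036 CPM in Ang II hearts and from 628 to 874 CPM in control hearts, and Cidea from 18.6 to 26.7 CPM in Ang II hearts and from 16.6 to 21.8 CPM in control hearts. Ang II replicate 1 stood apart in composition, with ribosomal RNA genes at 4.04% of its counts against 0.861% to 1.88% elsewhere, and with a median log2 deviation of 0.31 for short and -0.17 for long transcripts. Read counts given below are CPM, scaled to the total of each library with edgeR's factors, and are compared between hearts. Levels of different genes are compared only as FPKM, which divides by the length of all annotated exons, and gene positions are on GRCm38.

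**Figure D1:**
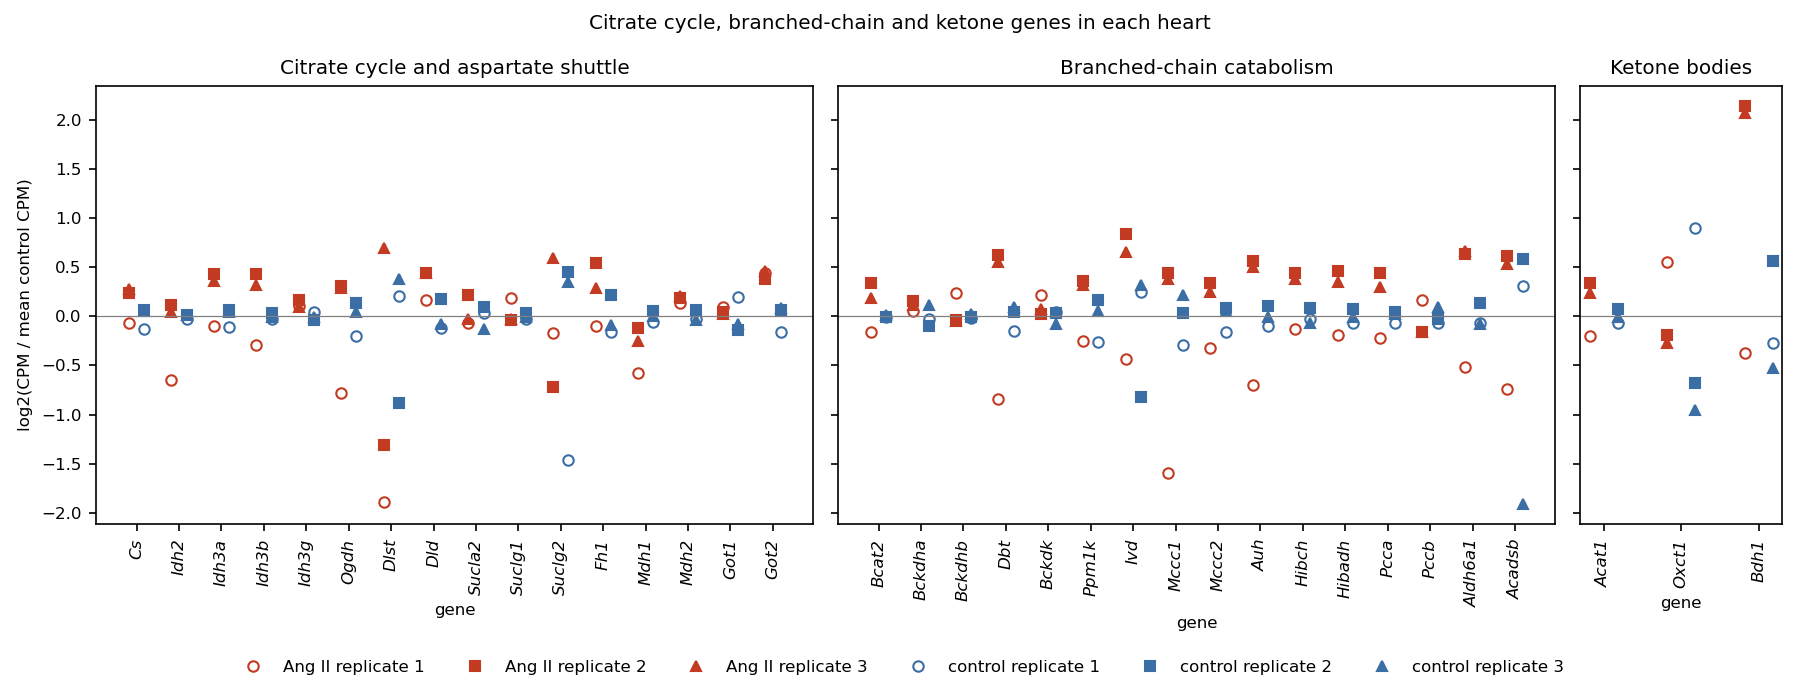
Each gene's CPM in each heart, as the log2 ratio to its mean in the 3 control hearts, with Ang II in red left of control in blue and replicate 1 as open circles. Bdh1 in Ang II replicates 2 and 3 lies highest, and Ang II replicate 1 lies below the other Ang II hearts for 26 of 35 genes.

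On the FPKM scale, the citrate cycle group was led by Idh2, the mitochondrial NADP-dependent isocitrate dehydrogenase, at a mean of 331 FPKM over all 6 hearts. The malate dehydrogenases Mdh2 (241 FPKM) and Mdh1 (236 FPKM) followed, then Ogdh at 152 FPKM, Idh3b at 117 and Cs at 116. Suclg2, the GDP-forming beta subunit of succinyl-CoA ligase, was lowest at 11.6 FPKM, and its ADP-forming counterpart Sucla2 averaged 48.2 FPKM. The neighbours Mdh2 and Mdh1, and Idh3b and Cs, differed by less than their SD between hearts in either group. Within a heart, Mdh1 was below Mdh2 in all Ang II hearts and above it in all control hearts. Summed over the 16 genes, the level was 1219, 2092 and 2101 FPKM in Ang II hearts and 1307, 1997 and 1745 FPKM in control hearts, so the groups overlapped. Both replicate 1 hearts had the low FPKM sums. In CPM the sums were 5792, 7582 and 7701 in Ang II hearts and 6427, 6912 and 6816 in control hearts. The share of mitochondrial pseudogene counts was largest in the replicate 1 libraries, 17.7% in Ang II and 19.0% in control. It was 13.3% to 15.3% elsewhere, and the part of this in the sums was not tested.

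No citrate cycle gene was called. Of 16, 13 had a log2 change above 0 (50.9% of all genes), with a median of 0.09 against 0.0092 for all genes tested; under quantile normalization of the same counts 5 of 16 were above 0 and the median was -0.14. Cs, citrate synthase, which condenses acetyl-CoA with oxaloacetate, had 647, 797 and 822 CPM in Ang II hearts and 621, 709.7 and 703 CPM in control hearts. The groups overlapped through Ang II replicate 1 alone, and the log2 change was 0.16 (SE 0.17).

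The mitochondrion holds an NADP-dependent and an NAD-dependent isocitrate dehydrogenase. Idh2 had 608, 1028 and 981 CPM in Ang II hearts and 935, 963 and 959.6 CPM in control hearts. Its 3 control hearts lay within a 1.03-fold range, whereas Ang II replicate 1 was far below every other heart. Idh3a, the catalytic alpha subunit of the NAD-dependent enzyme, had 206, 298 and 284 CPM in Ang II hearts and 205, 231 and 228 CPM in control hearts, with Ang II replicates 2 and 3 above all controls. Its log2 change was 0.25 (SE 0.19), and that of Idh2 was -0.13 (SE 0.23). Within each heart, the FPKM ratio of Idh2 over Idh3a was 5.78, 6.75 and 6.77 in Ang II hearts and 8.94, 8.16 and 8.26 in control hearts, so all Ang II hearts were lower. The remaining subunits Idh3b and Idh3g had log2 changes of 0.19 and 0.12. Idh3g had no overlap between groups, at 193 to 202 CPM in Ang II and 176 to 186 CPM in control hearts. Every Ang II heart was above every control heart in 7.97% of all genes. Under quantile normalization the Idh3g log2 change was -0.094.

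The subunits of the 2-oxoglutarate dehydrogenase complex, which releases carbon dioxide and forms succinyl-CoA, differed in their spread between hearts. The range was wide for Dlst in both groups and for Ogdh in Ang II hearts. For Dld it was 1.21-fold in Ang II and 1.23-fold in control hearts. Ogdh, the first subunit in the reaction, had 501, 1069 and 1054 CPM in Ang II hearts and 752, 946 and 892 CPM in control hearts. Ang II replicates 2 and 3 were above, and replicate 1 below, all controls, and the log2 change was 0.019 (SE 0.31). Dlst, the succinyltransferase, ran from 60.1 to 361 CPM in Ang II hearts and from 121 to 289.7 CPM in control hearts, with a log2 change of -0.39 (SE 0.69). Dld, the dihydrolipoamide dehydrogenase that this complex shares with the pyruvate and branched-chain complexes, had 157, 189.9 and 189 CPM in Ang II hearts and 129, 158 and 132 CPM in control hearts. The Dld groups overlapped only between Ang II replicate 1 and control replicate 2, and its log2 change was 0.35 (SE 0.16, unadjusted p = 0.0652 and adjusted p = 0.6796 in edgeR).

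Succinyl-CoA ligase and fumarase act later in the cycle. Suclg1, the shared alpha subunit of succinyl-CoA ligase, and Sucla2 had log2 changes of 0.04 (SE 0.14) and 0.05 (SE 0.15). Suclg2 varied 3.75-fold among control hearts and 2.49-fold among Ang II hearts, and the ratio of Sucla2 over Suclg2 ran from 2.76 to 8.15 in Ang II and from 3.04 to 11.9 in control hearts. Fh1, fumarase, had 193, 301 and 252 CPM in Ang II hearts and 185, 239.9 and 195 CPM in control hearts. Its log2 change was 0.27 (SE 0.21), and without Ang II replicate 1 it was 0.42 (SE 0.15, adjusted p = 0.264 in edgeR), with both other Ang II hearts above every control heart.

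Of the 4 paired enzymes of the malate-aspartate shuttle, 3 had groups that did not overlap in CPM. Of all genes tested, 7.97% did not overlap with Ang II higher and 9.21% with Ang II lower. Under quantile normalization only Mdh1 of the 3 stayed apart. Mdh2, the mitochondrial malate dehydrogenase (ENSMUSG00000019179, chromosome 5, 135778480 to 135790391, plus strand), had 948, 985 and 995 CPM in Ang II hearts and 848, 907 and 840.2 CPM in control hearts. Mdh1, the cytosolic one (ENSMUSG00000020321, chromosome 11, 21556692 to 21572367, minus strand), had 497, 681 and 623 CPM in Ang II hearts and 714, 769 and 742 CPM in control hearts. For Mdh2 every Ang II heart was above every control heart, and for Mdh1 every one was below. The log2 changes were 0.17 (SE 0.14) for Mdh2 and -0.30 (SE 0.17) for Mdh1, with adjusted p of 0.801 and 0.73 in edgeR.

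Got2, the mitochondrial aspartate aminotransferase (ENSMUSG00000031672, chromosome 8, 95864134 to 95888547, minus strand), had 640.2, 614 and 648 CPM in Ang II hearts and 424, 494 and 499.6 CPM in control hearts. The groups did not overlap, and the mean was 634 ± 17.6 CPM in Ang II and 472 ± 42.2 CPM in control hearts (SD, n = 3 each). Its log2 change of 0.43 (SE 0.15) had an unadjusted p of 0.0257 and an adjusted p of 0.584 in edgeR, and under quantile normalization it was 0.11. Got1, its cytosolic partner, had 298, 288 and 284 CPM in Ang II hearts and 319, 252 and 263 CPM in control hearts, which overlapped. In all, 3 of the 35 genes (Idh3g, Mdh2 and Got2) had every Ang II heart above every control heart (7.97% of all genes) and 1, Mdh1, had every one below (9.21%). Under quantile normalization these were 0 genes above (7.94%) and 3 below (8.56%), Idh2, Suclg1 and Mdh1. On the deposited FPKM scale 0 of the 35 were above (7.76%) and 0 below (4.01%), so Mdh1, Mdh2 and Got2 overlapped there.

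Ratios within a heart do not depend on scaling between libraries. Mdh1 over Mdh2 was 0.701, 0.925 and 0.838 in Ang II hearts and 1.13, 1.13 and 1.18 in control hearts, a mean of 0.822 ± 0.113 against 1.15 ± 0.0292 (SD, n = 3 each). Got1 over Got2 was 0.884, 0.89 and 0.832 in Ang II hearts and 1.43, 0.972 and 1.00 in control hearts. In both pairs every Ang II heart had the lower ratio of cytosolic to mitochondrial transcript. With 3 hearts a group, the exact two-sided permutation test cannot go below 0.1, and Mdh1 over Mdh2, Got1 over Got2 and Idh2 over Idh3a each reached that value (adjusted p = 0.233 over the 7 ratios computed).

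**Figure D2:**
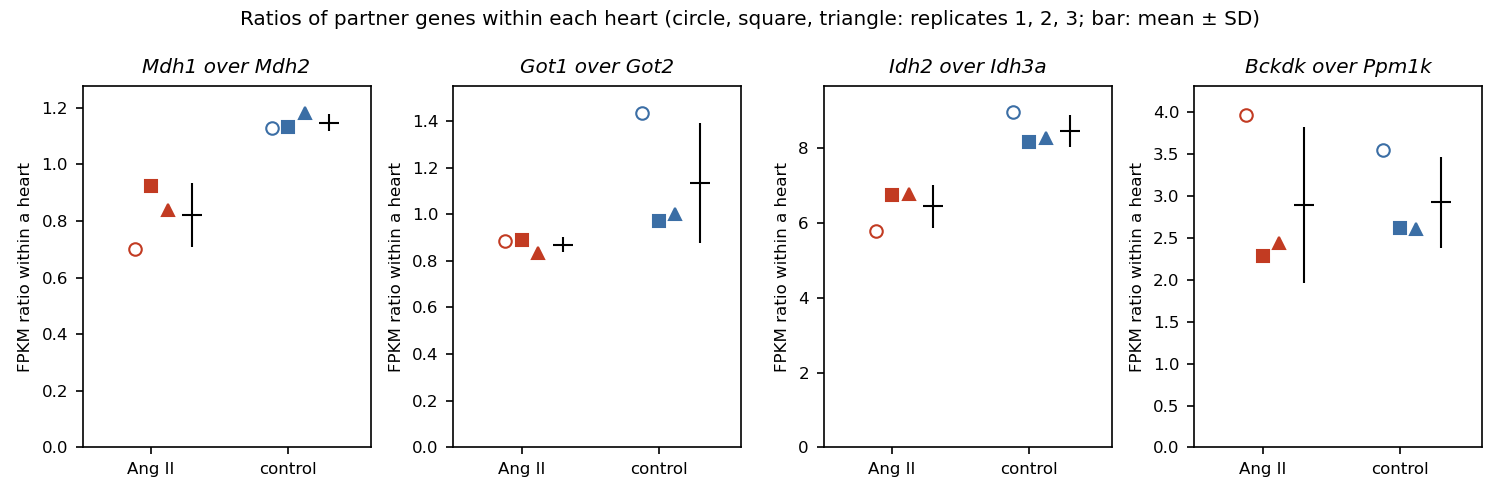
Ratio of 2 genes' FPKM within each heart, Ang II in red left of control in blue, with the mean and SD of 3 hearts as bars. The Ang II hearts lie below the control hearts for Mdh1 over Mdh2, Got1 over Got2 and Idh2 over Idh3a, and overlap them for Bckdk over Ppm1k.

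Of 16 further genes of the citrate cycle and its feeding reactions, 0 were called, 16 had a log2 change above 0 and the median was 0.20; under quantile normalization 8 of 16 were above 0 and the median was 0.03. Idh1, the cytosolic isocitrate dehydrogenase, was the only one with an unadjusted p under 0.05. It had 24.8, 30.6 and 29.9 CPM in Ang II hearts and 22.2, 23.004 and 20.8 CPM in control hearts, with no overlap (log2 change 0.37, SE 0.15, unadjusted p = 0.0396 and adjusted p = 0.633 in edgeR). Pcx, pyruvate carboxylase, which refills oxaloacetate, had 22.6, 21.2 and 20.2 CPM in Ang II hearts and 16.4, 17.7 and 18.2 CPM in control hearts, which did not overlap (log2 change 0.29, SE 0.13, adjusted p = 0.68 in edgeR).

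Branched-chain genes were expressed at lower levels per length than most citrate cycle genes. Bckdha, the E1 alpha subunit of the branched-chain ketoacid dehydrogenase, averaged 88.1 FPKM over all 6 hearts, and the next, Pccb, 20.9 FPKM. The lowest was Mccc1 at 3.51 FPKM, and its partner subunit Mccc2 averaged 9.99 FPKM. These FPKM divide by all annotated exon bases, 10952 for Mccc1, 2802 for Mccc2 and 10179 for Hibadh. Their longest coding transcripts have 2455, 2123 and 1825 bases, so the ranks within this group depend on the length used. Summed over the 16 genes, the level was 181, 302 and 295 FPKM in Ang II hearts and 178, 251 and 241 FPKM in control hearts. Both replicate 1 hearts were again lowest in FPKM. In CPM the sums were 788, 1186 and 1127 in Ang II hearts and 898, 899 and 919 in control hearts, so control replicate 1 was close to its group.

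Of the 16 branched-chain genes, 14 had a log2 change above 0, with a median of 0.18 against 0.0092 for all genes; under quantile normalization 11 of 16 were above 0 and the median was 0.07. None reached an unadjusted p under 0.05 with all 6 hearts. Without Ang II replicate 1 the edgeR median was 0.39 (all genes -0.012), again with 0 called (0.73% of all genes). At an unadjusted p under 0.05, 9 of 16 were higher (7.75% of all genes) and 0 lower (7.6%). Limma after quantile normalization, also without that heart, gave 6 higher and 1 lower and a median of 0.31. Of all 17661 genes, it gave 1216 higher and 1343 lower.

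The entry steps are the transaminase and the dehydrogenase complex. Bcat2, the mitochondrial transaminase, had 55.8, 78.7 and 70.7 CPM in Ang II hearts and 62.0, 62.0 and 63.0 CPM in control hearts. The control hearts were nearly identical, and the Ang II hearts lay on both sides of them. Bckdha (ENSMUSG00000060376, chromosome 7, 25629946 to 25658981, minus strand) had 179.8, 193 and 188 CPM in Ang II hearts and 170.0, 162 and 188 CPM in control hearts. Its log2 change was 0.11 (SE 0.14), and that of the E1 beta subunit Bckdhb was 0.06 (SE 0.14). Bckdha shares 1171 exonic bases with B3gnt8 on the opposite strand, and whether counting used strand is not given in the sources used here. Dbt, the E2 core, had 8.72, 24.0 and 22.9 CPM in Ang II hearts and 14.03, 16.1 and 16.6 CPM in control hearts, so Ang II replicate 1 was below and the other Ang II hearts above all controls. The log2 change of Dbt was 0.25 (SE 0.37), and without Ang II replicate 1 it was 0.59 (SE 0.11, adjusted p = 0.102 in edgeR).

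The switch enzymes of the complex did not separate the groups. Bckdk, the inactivating kinase, had 53.7, 47.0 and 48.8 CPM in Ang II hearts and 47.8, 47.2 and 43.6 CPM in control hearts. Ppm1k, the activating phosphatase, had 22.04, 33.5 and 32.6 CPM in Ang II hearts and 21.9, 29.4 and 27.3 CPM in control hearts. The log2 changes were 0.11 (SE 0.13) and 0.17 (SE 0.21). Their FPKM ratio was 3.97, 2.29 and 2.44 in Ang II hearts and 3.55, 2.62 and 2.61 in control hearts, highest in both replicate 1 hearts.

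Of the valine pathway, Hibch, which releases 3-hydroxyisobutyrate from its CoA ester, had 29.4, 43.5 and 41.9 CPM in Ang II hearts and 31.6, 34.2 and 30.7 CPM in control hearts. Hibadh, which oxidises 3-hydroxyisobutyrate, had 98.4, 154 and 142 CPM in Ang II hearts and 107, 118 and 112 CPM in control hearts. Aldh6a1, the methylmalonate semialdehyde dehydrogenase of valine and pyrimidine breakdown (ENSMUSG00000021238, chromosome 12, 84430717 to 84451004, minus strand), had 44.6, 99.2 and 101 CPM in Ang II hearts and 60.8, 70.0 and 60.6 CPM in control hearts. In all 3 genes Ang II replicates 2 and 3 were above every control heart and replicate 1 was below.

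With all 6 hearts the log2 changes of these valine genes were 0.25 (SE 0.19), 0.23 (SE 0.20) and 0.36 (SE 0.31). Aldh6a1 had the lowest adjusted p of the set without Ang II replicate 1, 0.0663 at a log2 change of 0.65 (SE 0.10) in edgeR. It passed, at an adjusted p of 0.0465 in edgeR and as the only one of the 35, in a fit without Ang II replicate 1 that also corrected for transcript length and called 152 genes (0.861%); this fit was added after the data were seen. Aldh6a1 shares 1078 exonic bases with Bbof1 on the opposite strand, which had 84 to 166 counts per library.

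In leucine breakdown, Ivd, isovaleryl-CoA dehydrogenase, had 67.4, 162 and 143 CPM in Ang II hearts and 108, 51.4 and 113 CPM in control hearts. Control replicate 2 was the lowest of the 6 hearts, and the log2 change was 0.45 (SE 0.41). Mccc1, of the methylcrotonyl-CoA carboxylase, ran from 13.2 to 54.4 CPM in Ang II hearts and from 32.6 to 46.5 CPM in control hearts. Its log2 change was -0.0031 with all 6 hearts and 0.41 without Ang II replicate 1. Mccc2, its partner subunit, had a log2 change of 0.11, and Auh, the hydratase that follows, one of 0.23.

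Of the remaining genes, Pcca and Pccb encode the propionyl-CoA carboxylase subunits, where the ends of valine and isoleucine breakdown meet, and had log2 changes of 0.20 and -0.04. Acadsb, the acyl-CoA dehydrogenase of isoleucine breakdown, had 25.5, 64.9 and 61.5 CPM in Ang II hearts and 52.8, 63.4 and 11.3 CPM in control hearts. Its 5.61-fold range among control hearts was the widest of the set in that group. In total, 6 of the 35 genes (Dlst, Suclg2, Ivd, Acadsb, Oxct1 and Bdh1) varied more than 2-fold among control hearts, against 6.01% of 6403 genes with a mean of at least 10 CPM.

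Of 13 further branched-chain genes 0 were called, 11 had a log2 change above 0 and the median was 0.12, against 0.04 and 8 of 13 under quantile normalization. Slc25a44, the mitochondrial carrier through which branched-chain amino acids enter, had 10.6, 8.55 and 7.91 CPM in Ang II hearts and 8.95, 10.1 and 8.74 CPM in control hearts.

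**Figure D3:**
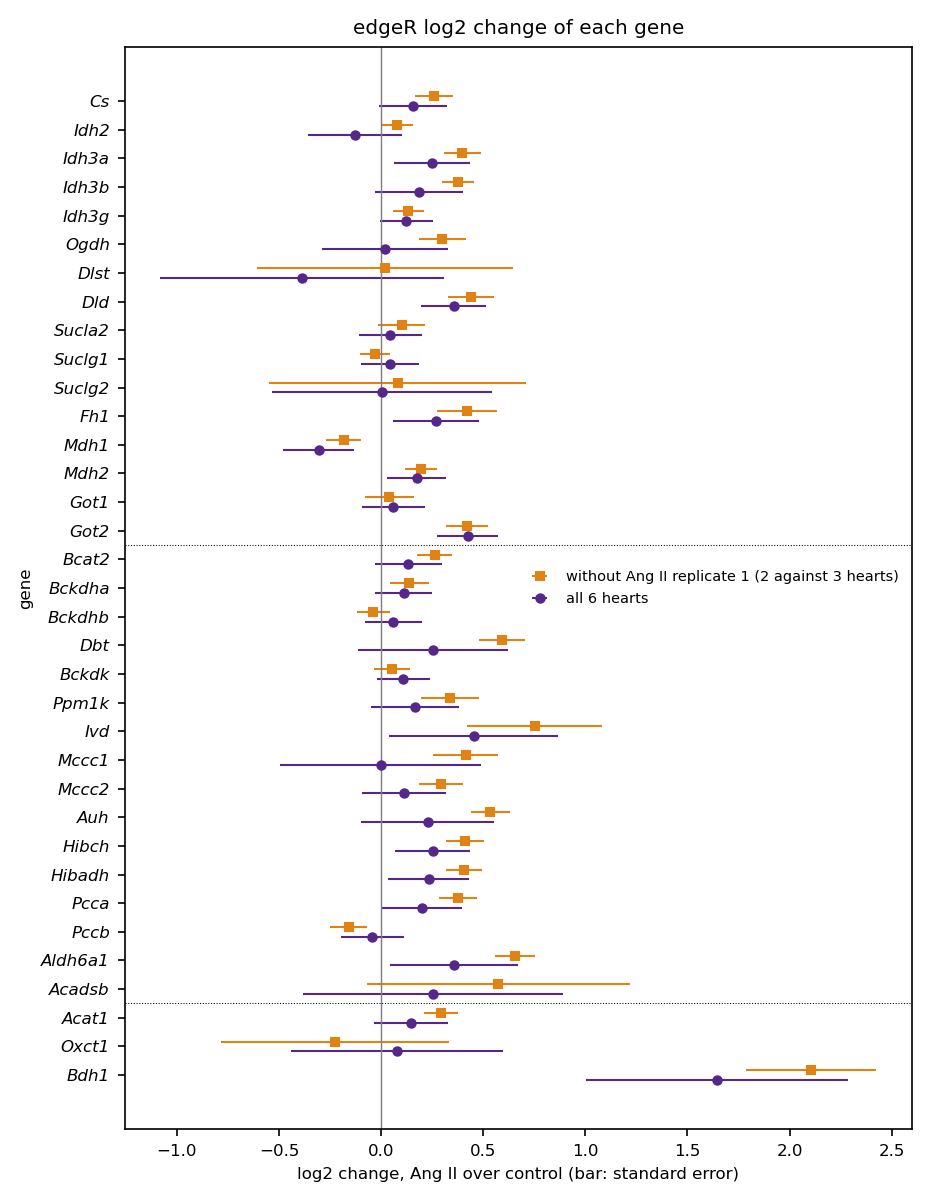
edgeR log2 change of Ang II over control for each gene with its standard error, for all 6 hearts (purple circles) and without Ang II replicate 1 (orange squares). Bdh1 stands at 1.64 and 2.10, and Mdh1 is below 0 in both; under quantile normalization 18 of the 35 values from all 6 hearts are above 0.

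Of the ketone genes, Bdh1 and Oxct1 varied widely between hearts, and Acat1 less, 1.46-fold among Ang II and 1.10-fold among control hearts. Bdh1, the mitochondrial 3-hydroxybutyrate dehydrogenase (ENSMUSG00000046598, chromosome 16, 31422280 to 31458901, plus strand), had 16.5, 94.0 and 89.6 CPM in Ang II hearts and 17.7, 31.5 and 14.8 CPM in control hearts. Ang II replicates 2 and 3 stood well above all controls, and Ang II replicate 1 lay within the control range. These rest on 718, 6606 and 6375 counts in Ang II hearts and 807, 2100 and 814 counts in control hearts, so counting error was small beside the spread between hearts. The mean was 66.7 ± 43.5 CPM in Ang II and 21.3 ± 8.95 CPM in control hearts (SD, n = 3 each).

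The Bdh1 log2 change was 1.64 (SE 0.64), with an unadjusted p of 0.0387 and an adjusted p of 0.63 in edgeR. Without Ang II replicate 1 it was 2.10 (SE 0.32), 4.30-fold, with an adjusted p of 0.0678. Bdh1 was called by limma's voom with a weight per library (log2 change 2.17, adjusted p = 0.0352), which called 348 genes (2.08%) and no other of the 35; DESeq2, which called 276 genes (1.65%), gave it an adjusted p of 0.1999 and called 0 of the 35. Its adjusted p ran from 0.0352 to 0.998 over 20 alternative settings, and the log2 change from 1.32 to 2.17. Bdh1 shares 533 exonic bases with Gm15743 on the opposite strand, which had 41, 81 and 49 counts in Ang II hearts and 16, 14 and 15 counts in control hearts, few beside those of Bdh1.

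Oxct1, the succinyl-CoA transferase that activates acetoacetate and is the committed step of ketone use (ENSMUSG00000022186, chromosome 15, 4026383 to 4155344, plus strand), had 370.4, 223 and 210.3 CPM in Ang II hearts and 471, 159 and 131 CPM in control hearts. Both replicate 1 hearts were the highest of their group, and the groups overlapped. The log2 change was 0.08 (SE 0.52) with all 6 hearts, -0.23 without Ang II replicate 1 and 0.89 without control replicate 1. Acat1, the thiolase that splits acetoacetyl-CoA, had 231, 337 and 313 CPM in Ang II hearts and 253, 279 and 265 CPM in control hearts. Its log2 change was 0.15 (SE 0.18). On the FPKM scale, Acat1 averaged 69.9 and Oxct1 61.7 over all 6 hearts, which differed by less than their SD, and Bdh1 averaged 11.2.

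The FPKM ratio of Oxct1 over Bdh1 was 23.6, 2.49 and 2.47 in Ang II hearts and 28.1, 5.29 and 9.28 in control hearts. Both replicate 1 hearts had the highest ratios, and the groups overlapped. The median of the 3 ketone genes' log2 changes was 0.15 with all 6 hearts, 0.89 without control replicate 1 and 0.58 without both replicate 1 hearts.

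**Figure D4:**
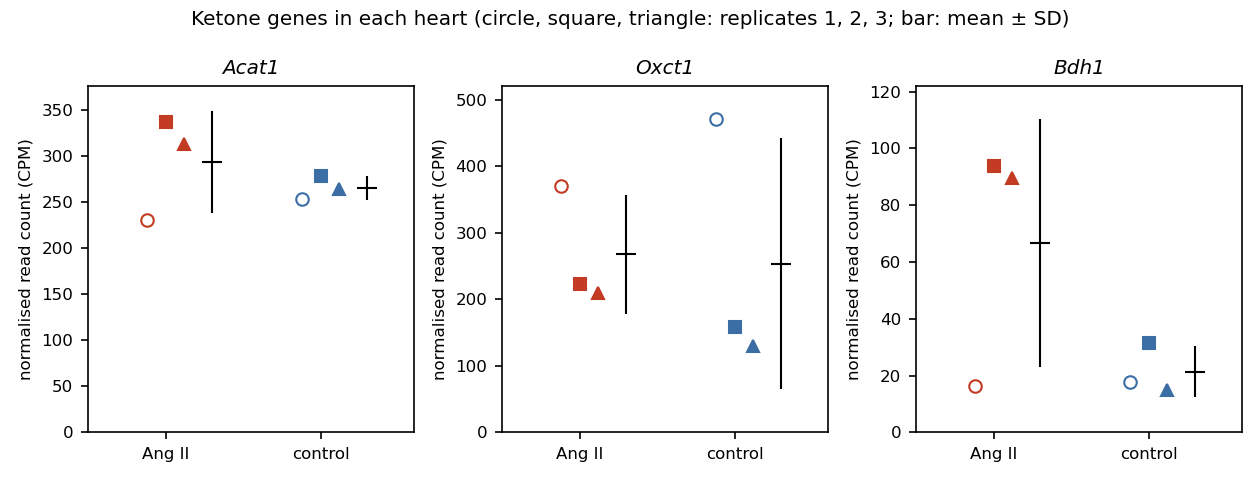
CPM of the 3 ketone genes in each heart, Ang II in red left of control in blue, with the mean and SD of 3 hearts as bars and replicate 1 as open circles. Bdh1 is high in Ang II replicates 2 and 3 alone, at 94.0 and 89.6 CPM, and Oxct1 is high in both replicate 1 hearts, at 370.4 CPM in Ang II and 471 CPM in control.

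Of 9 further ketone genes 7 were tested and 0 called. Slc16a1, a carrier of lactate and ketone bodies, had 52.7, 96.7 and 93.2 CPM in Ang II hearts and 60.1, 75.1 and 67.5 CPM in control hearts, with Ang II replicate 1 the lowest of all hearts.

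Among 8 transcriptional regulators of these pathways 0 were called and 0 reached an unadjusted p under 0.05 with all 6 hearts. Klf15, which controls branched-chain breakdown in muscle, had 13.96, 31.7 and 31.6 CPM in Ang II hearts and 21.2, 16.2 and 22.5 CPM in control hearts. Ppargc1a, a coactivator of mitochondrial genes, had 29.1, 38.7 and 39.2 CPM in Ang II hearts and 24.6, 33.6 and 19.6 CPM in control hearts. In both, Ang II replicates 2 and 3 were above every control heart and replicate 1 was not. Nrf1, the factor whose sites are shown above, had 6.69, 3.33 and 3.08 CPM in Ang II hearts and 7.75, 8.53 and 4.67 CPM in control hearts. The log2 change of Nrf1 was -0.68 (SE 0.38, adjusted p = 0.728 in edgeR), and without Ang II replicate 1 it was -1.12 (adjusted p = 0.164), with both other Ang II hearts below every control heart. DESeq2 and voom with library weights also called 0 of these regulators and 0 of the further citrate cycle, branched-chain and ketone genes. Esrra, the estrogen-related receptor alpha, had 66.8, 54.2 and 58.2 CPM in Ang II hearts and 59.0, 52.9 and 61.5 CPM in control hearts, which overlapped.

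Ang II replicate 1 tended to lie further below the other Ang II hearts in genes with longer transcripts, with exceptions. Its log2 difference from the mean of Ang II replicates 2 and 3 had a median of -0.22 over the 18 genes with a longest coding transcript up to 2544 bases and of -0.60 over the 17 longer ones. Across the 35 genes it correlated with the log2 of transcript length at a Pearson's r of -0.37 and a Spearman's rho of -0.36, against -0.23 and -0.28 over 16019 genes; these points share 3 libraries and are a description across genes. The widest deviations were those of Bdh1 (-2.47), Mccc1 (-2.01) and Dlst (-1.90), and Oxct1 was opposite at 0.78. Mccc1, at 2455 bases, was among the 18 shorter genes, and Oxct1, at 3527 bases, among the 17 longer ones.

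**Figure D5:**
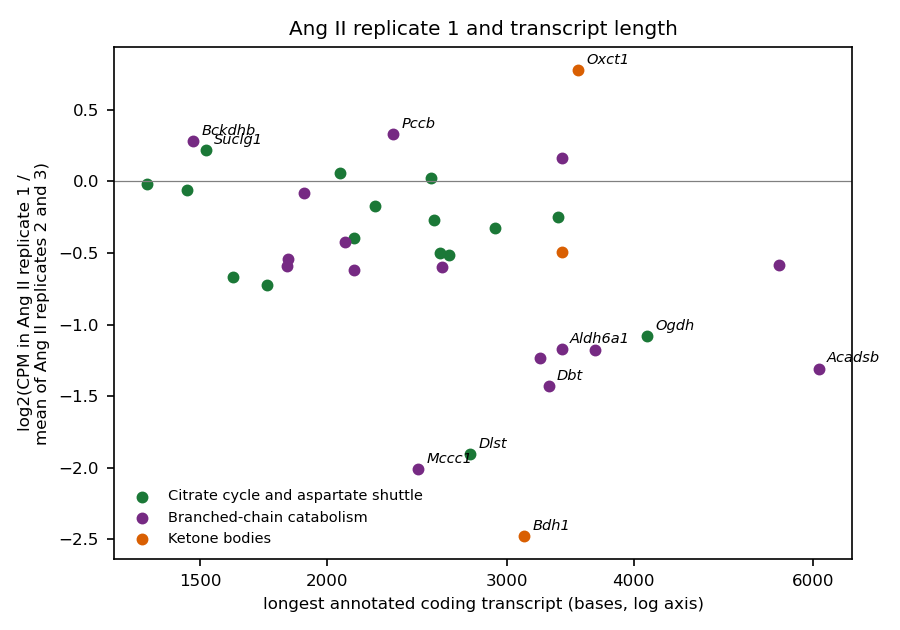
For each of the 35 genes, the log2 ratio of its CPM in Ang II replicate 1 to the mean of Ang II replicates 2 and 3, against the length of its longest annotated coding transcript on a log axis. Longer genes tend to lie lower (r = -0.37), Bdh1 is lowest at -2.47 and Oxct1 highest at 0.78.

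With Ang II replicates 2 and 3 alone, 23 of the 35 genes had both hearts above every control heart (18.5% of all genes) and 4 had both below (17.6%), the 4 being Suclg1, Mdh1, Bckdhb and Pccb. Under quantile normalization these were 16 above (17.6%) and 5 below (17.3%).

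Cell type markers also differed between hearts, and in RNA of mixed heart tissue fewer cells of a type and less RNA per cell cannot be told apart. The median log2 deviation from the mean control heart was -0.16, 0.34 and 0.30 in Ang II replicates 1 to 3 for the 35 genes. For 10 heart muscle markers it was 0.23, 0.33 and 0.22. All 10 had a log2 change above 0 (50.9% of all genes), with a median of 0.26, and 0 were called by edgeR. Under quantile normalization 7 of 10 were above 0 and the median was 0.05. Of these 10, 2 were higher at an unadjusted p under 0.05 in edgeR (3.57% of all genes). DESeq2 (1.65% of all genes) and voom (2.08%) called 0 of the 10. For 6 endothelial markers the median deviation was -0.54, -0.36 and -0.32, and for 5 red blood cell markers -1.33, -1.55 and -1.54. edgeR called 0 of either, with 3 of 6 and 5 of 5 lower at an unadjusted p under 0.05 (3.94% of all genes). DESeq2 called 2 and 4 (1.65% of all genes), and voom with library weights 2 and 5 (2.08%). The same deviations were -0.36, 0.072 and 0.10 for 6 fibroblast markers, -0.15, -0.019 and -0.016 for 5 smooth muscle and pericyte markers and 0.10, -0.36 and -0.32 for 6 macrophage markers. In these lists, 2, 0 and 1 markers were lower at an unadjusted p under 0.05 in edgeR and 0 were higher. All 3 methods called 0 of them. The 3 of 4 atrial markers that were tested were higher at an unadjusted p under 0.05 in edgeR (3.57% of all genes), which called 0. DESeq2 (1.65% of all genes) and voom (2.08%) each called 2. The summed level of the 4 atrial markers was 369, 319 and 323 FPKM in Ang II hearts and 126, 128 and 143 FPKM in control hearts. Nearly all of it was Nppa, which ventricular muscle also makes under load, while Myl7 was at most 0.689 CPM in any heart. The 3 tested markers had log2 changes of 1.31 to 3.75, all with no overlap between groups (7.97% of all genes). The cause of this difference was not tested. The part of these shifts in the values of the 35 genes was not tested.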

How the data were processed

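The authors deposited 1 table with FPKM and an estimated count for each gene in 6 libraries. Per the submitters' processing notes, the tools were HISAT2 2.0, StringTie 1.3.0 and Bowtie 0.12.2, with no roles given, and the build was mm8. Gene positions are the table's; 94.23% of the 55141 IDs also found in GENCODE M21 stood at that annotation's GRCm38 positions. The deposited estimated count values are whole numbers. In Ang II replicate 2, the only library checked, the deposited FPKM was proportional to count per union exon length. This held within 1% for 34 of the 35 genes, so annotated retained introns lower the FPKM.

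Counts were tested with edgeR 4.0.16 in R 4.3.3 (two-sided quasi-likelihood test after filterByExpr, with libraries scaled by the trimmed mean of M-values), fitted over 16759 genes, which include all 35, and adjusted over all of them by Benjamini-Hochberg at 0.05. A standard error is the log2 change over the square root of F. Alternatives, 20 in number, covered DESeq2 1.42.0, limma 3.58.1 on log2(FPKM + 0.5 or 0.1), voom with library weights, quantile normalization, filters, a correction for transcript length, a replicate block and libraries left out. The procedure was tested on simulated data. Figures used matplotlib 3.10.9 in Python 3.11.15.

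The genes and lists were chosen with earlier results of these data known. Values per library are given for 13 genes at entry, regulated and committed steps and for those of each group with the smallest unadjusted p; Dbt, Fh1, Idh3g, Acadsb, Nrf1 and the ranges of Dlst and Mccc1 were added after their values were seen. Other pathway genes are named where p was under 0.05 or where they stand at an entry step. Results for 2 further pathway genes are not reported here.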

Additional observations from a re-analysis of the deposited data

How the results depend on the processing

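Of 700 values of the 35 genes under 20 alternatives, 68 turned their sign, and 14 genes kept theirs in all. The genes called moved from 6 to 12 with no filter, 276 with DESeq2, 3, 2 and 1 with limma on log2(FPKM + 0.5), on log2(FPKM + 0.1) and on log2(FPKM + 0.5) with no filter, 348 with library weights, 12 with the transcript length correction, 48 without both replicate 1 libraries, 98 with quantile normalization and 152 with the length correction, both without Ang II replicate 1, and 0 to 129 with single libraries left out. Calls among the 35 moved from 0 to 1 with library weights and with the length correction without Ang II replicate 1; leaving out single libraries gave 0. The cause of these moves was not tested.

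The replicate number as a block gave 0 genes called and 0 of the 35. Deviations of same-numbered libraries correlated at 0.062, 0.092 and -0.028. The replicate 1 and replicate 2 libraries correlated best with their own number, and the replicate 3 libraries did not. The labels give only a shared number, and correlations this small cannot tell whether same-numbered libraries shared a batch. Under the block Ogdh turned to -0.054.

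Under quantile normalization the citrate cycle median was -0.14, and Cs (-0.15), Idh3b (-0.13), Idh3g (-0.094), Ogdh (-0.38), Sucla2 (-0.19), Suclg1 (-0.21), Mdh2 (-0.11), Got1 (-0.20), Bcat2 (-0.0025), Bckdha (-0.093), Bckdhb (-0.032) and Acat1 (-0.094) turned. With quantile normalization and without Ang II replicate 1, Sucla2 (-0.039), Suclg1 (-0.16), Got1 (-0.076), Bckdhb (-0.10), Bckdk (-0.019), Mccc1 (0.36) and Oxct1 (-0.12) turned. Library weights turned Idh2 (0.036), Dlst (0.0076), Suclg1 (-0.020), Bckdhb (-0.037) and Mccc1 (0.31). Without both replicate 1 libraries, Idh2 (0.059), Dlst (0.13), Suclg1 (-0.049), Suclg2 (-0.32), Bckdhb (-0.051) and Mccc1 (0.28) turned and the ketone median was 0.58. The length correction turned Suclg1 (-0.065) and Bckdhb (-0.056); with it and without Ang II replicate 1, Idh2 (0.069), Dlst (0.021), Suclg1 (-0.044), Bckdhb (-0.050), Mccc1 (0.41) and Oxct1 (-0.23) turned. Limma on FPKM turned Ogdh (-0.0065 at a pseudocount of 0.5, with and without filter, and -0.0069 at 0.1). Leaving out mitochondrial genes turned Suclg2 (-0.0043). Mccc1 turned with median-of-ratios scaling (0.0065), no filter (0.0071) and DESeq2 (0.0061).

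With single libraries, or both replicate 1 libraries, left out, log2 changes that turned or moved ran from 0.14 to 0.89 for the ketone median, -0.26 to 0.078 for Idh2, -0.15 to 0.30 for Ogdh, -1.57 to 0.13 for Dlst, -0.049 to 0.11 for Sucla2, -0.049 to 0.084 for Suclg1, -0.42 to 0.29 for Suclg2, -0.0061 to 0.17 for Got1, -0.051 to 0.11 for Bckdhb, -0.29 to 0.41 for Mccc1, -0.010 to 0.29 for Mccc2, -0.20 to 0.014 for Pccb, -0.20 to 0.75 for Acadsb and -0.24 to 0.89 for Oxct1.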

Other observations

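The subunits of the mitochondrial pyruvate carrier deviated in opposite directions in Ang II replicate 1. Mpc2, a subunit of the mitochondrial pyruvate carrier, had 330.0, 156 and 172 CPM in Ang II hearts and 132, 116 and 153 CPM in control hearts, highest in Ang II replicate 1. Its partner Mpc1 had 47.0, 86.6 and 77.1 CPM in Ang II hearts and 58.4, 65.8 and 80.5 CPM in control hearts, lowest in Ang II replicate 1. Neither was called by edgeR (adjusted p = 0.67 for Mpc2 and 0.971 for Mpc1). Both genes were picked after their values were seen.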
